A study of Mus musculus with 6 samples.

Results

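Interferon-stimulated genes are genes whose transcription climbs when a cell senses interferon, and 9 of them are described here across the immune cells of the mouse hippocampus: Ifit2, Ifit3, Isg15, Irf7, Ifitm3, Oasl2, Bst2, Rtp4 and Ifi27l2a. They were chosen by name, and all 9 had a row and at least 1 UMI (unique molecular identifier, 1 per captured molecule) among the 32429 gene rows. Live CD45+ cells of BC57BL/6 mice were sorted from hippocampi freed of meninges and choroid plexus, and their transcripts were read from the 5' end in droplets, 1 cell barcode each. The mice went through learned helplessness, in which 180 inescapable foot shocks of 0.3 mA precede a test of 30 escape trials of 24 s. The acute helpless library came from mice that did not escape in the acute paradigm, and the acute non-helpless library from shocked mice of that paradigm that were not helpless. The chronic paradigm added weekly retests over 3 weeks and gave the non-recovered library, the recovered library (helpless at first, later not) and the chronic non-helpless library. The non-shocked library came from mice that received no shock. Age, sex and the number of animals per library were not stated in the labels.

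With 1 library in every group there was no replicate to test against, so each difference between groups has no replicate check and no p-value. All intervals below are exact 95% intervals that cover counting error only. The files held 3005 barcodes (droplets called as cells) with 14097425 UMIs, of which 2721 were deposited as microglia, the resident macrophages of the brain. P2ry12 was found in 96.0% to 98.6% and Tmem119 in 91.7% to 98.4% of the microglia of each library, so the deposited label carried its defining markers. They were lower, at 87.0% and 70.7%, in the shallow non-shocked microglia of batch 2. A check on 12 microglial and 7 neutrophil markers was not passed by 13 microglia. Microglial depth differed, with medians of 4161, 3676, 2497, 4579.5, 4245 and 3060 UMIs per barcode in the acute helpless, acute non-helpless, non-recovered, recovered, chronic non-helpless and non-shocked libraries. The acute helpless library is batch 1 alone, so batch and condition cannot be told apart there. The acute non-helpless library is batch 2, the 3 chronic libraries are batch 3, and the non-shocked library is split into 123 microglia of batch 2 with a median of 905 UMIs and 429 of batch 3 with a median of 3906. The share of microglia with under 2.5% ribosomal protein UMIs was 52.5% in non-recovered and 40.4% in non-shocked, against 8.79% to 15.9% in the other 4 libraries. Across libraries, 5 barcode sequences occurred in 2 libraries each, with correlations of log counts of 0.429 to 0.636 across the genes of a pair.

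Type I interferons bind the receptor made of Ifnar1 and Ifnar2, whose kinases Jak1 and Tyk2 activate transcription factors that, with Irf9, bind the interferon-stimulated response element in the promoters of target genes. In the brain, microglia are known to carry such genes at a low level that climbs in infection, ageing and neurodegeneration, and small clusters of interferon-responsive microglia are a familiar feature of single-cell surveys.

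By role, Irf7 is a transcription factor that amplifies type I interferon production. Ifit2 and Ifit3 are tetratricopeptide repeat proteins that act against viral RNA translation, Isg15 is a ubiquitin-like protein attached to other proteins, and Oasl2 belongs to the oligoadenylate synthetase-like family. Ifitm3 blocks viral entry at membranes, Bst2 (tetherin) holds budding virions on the cell surface, Rtp4 is a receptor transport protein, and Ifi27l2a is a small membrane protein of the ISG12 family. On GRCm38, in the GENCODE M21 annotation, Ifit2 (chr19:34550694-34576419, plus strand) and Ifit3 (chr19:34583531-34588731, plus) lie 7111 bases apart, and Ifitm3 (chr7:141009586-141010770, minus) and Irf7 (chr7:141262706-141266481, minus) 251935 bases apart. Isg15 is at chr4:156199424-156200818 (minus), Oasl2 at chr5:114896936-114912234 (plus), Bst2 at chr8:71534255-71537456 (minus), Rtp4 at chr16:23520291-23614222 (plus) and Ifi27l2a at chr12:103442167-103443680 (minus). All 9 are annotated as protein coding.

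The core of the response element, taken as GAAA, any pair of bases and GAAA on either strand, was looked for in the RefSeq promoter windows of build GRCm38.p6, from 250 bases before to 50 after each start. Windows were at hand for 7 of the 9 genes (not Rtp4 and Ifi27l2a), and 4 of the 7 held a match, against 3.43% of 32817 windows of all genes. Ifit3 matched from 156 and 122 bases before its start, Bst2 from 130 and 124, and Isg15 from 78, 72 and 66, the matches overlapping one another in Bst2 and Isg15. Ifitm3 matched from 2 and 19 bases after its start, while the windows of Ifit2, Irf7 and Oasl2 held none of these letters. The stretches from 180 to 31 bases before the start are shown for the 3 genes with upstream matches, since they carry the motif that the genes share. They are read 5′ to 3′ along the gene's strand with matches in capitals, from chr19:34583349-34583498 (plus) for Ifit3, chr4:156200849-156200998 (minus) for Isg15 and chr8:71537503-71537652 (minus) for Bst2.
Ifit3: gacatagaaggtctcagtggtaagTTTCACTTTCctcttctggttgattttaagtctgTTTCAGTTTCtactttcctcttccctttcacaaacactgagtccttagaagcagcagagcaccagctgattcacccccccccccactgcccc
Isg15: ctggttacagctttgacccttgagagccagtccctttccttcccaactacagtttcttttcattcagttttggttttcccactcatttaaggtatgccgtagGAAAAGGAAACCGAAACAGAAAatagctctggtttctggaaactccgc
Bst2: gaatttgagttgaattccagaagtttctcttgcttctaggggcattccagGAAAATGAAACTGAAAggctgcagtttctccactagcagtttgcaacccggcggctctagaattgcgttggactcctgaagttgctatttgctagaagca
In Ifit3 both matches start and end with TTTC, the motif read on the opposite strand, and in Isg15 and Bst2 it runs along the gene's strand. A match describes letters and does not show binding, which was not measured.

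In sum, the 9 genes were most abundant in monocytes and least abundant in microglia. Their summed level, in UMIs per 1000000 UMIs of that cell type (CPM; a UMI counts a molecule once whatever its length), was 4849 CPM (4630 to 5075) in 42 monocytes and 1814 CPM (1529 to 2137) in 25 macrophages. It was 702 CPM (667 to 737) in 161 T cells, 612 CPM (460 to 798) in 17 B cells, 215 CPM (167 to 273) in 39 NK cells and 191 CPM (183 to 200) in microglia. The NK cell and microglial intervals overlap, and so do those of T and B cells. Monocytes exceeded microglia in every library, by 5.08-fold in the non-recovered library, which held 1 monocyte, to 50.1-fold in the non-shocked library, which held 3. Without the 4 monocyte barcodes that carried at least 20 neutrophil marker UMIs, a split chosen after seeing the data, the monocyte level was 5302 CPM.

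The members divided the cell types differently. Ifitm3 stood highest in monocytes, at 2197 CPM and in 42 of 42 barcodes, against 6.36 CPM and 1.91% of barcodes in microglia, a 346-fold difference (271 to 448). Irf7 was 66.9-fold (48.8 to 92.7) and Bst2 5.18-fold (4.53 to 5.91) higher in monocytes than in microglia, and the Bst2 ratio was the smallest of the 9. Unlike the sum, Bst2 was lower in NK cells (80.2 CPM) and B cells (34.0 CPM, from 3 UMIs) than in microglia (133 CPM). Its ratios over microglia were 0.603 (0.389 to 0.894) in NK cells and 0.256 (0.0527 to 0.748) in B cells. Ifi27l2a had 544 CPM in B cells and 276 CPM in T cells, against 13.7 CPM in microglia. In B cells it made up 48 of the 54 member UMIs of the B cells, whose remaining UMIs came from Bst2, Irf7 and Isg15.

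**Figure D1:**
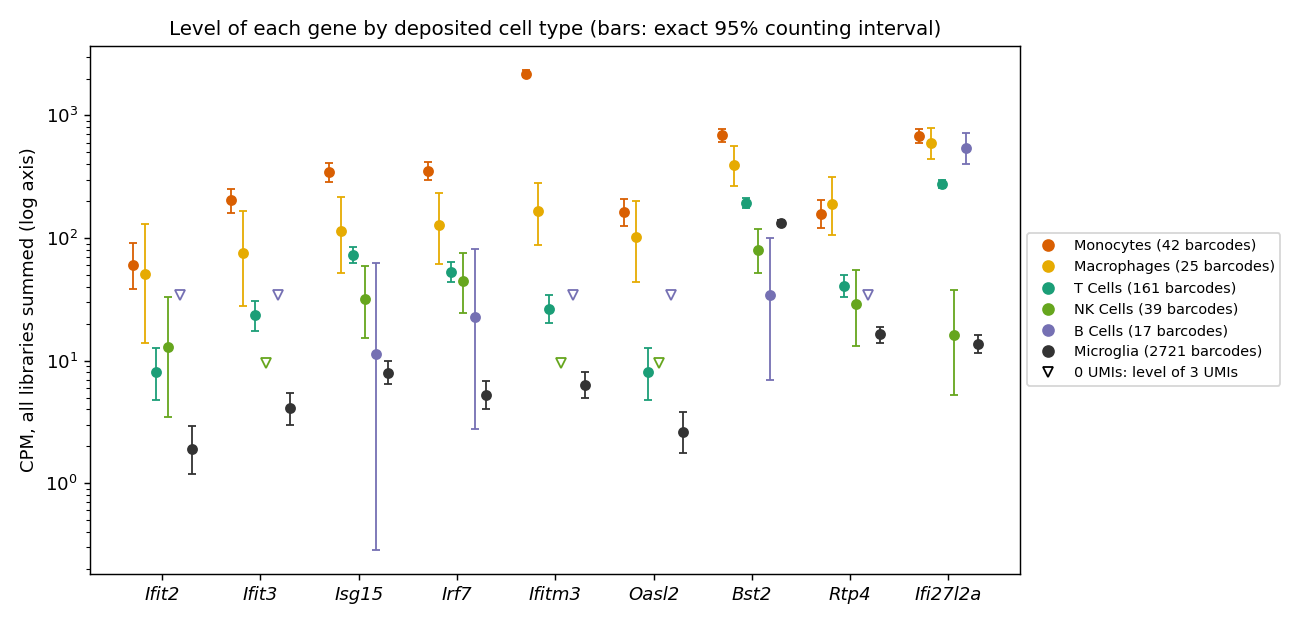
Level of each of the 9 genes in the 6 deposited cell types, in CPM summed over all libraries on a log axis, with exact 95% counting intervals; open triangles stand at the level of 3 UMIs where no UMI was seen. Monocytes (42 barcodes) lie highest for 8 genes, Rtp4 is as high in macrophages, and Ifi27l2a is also high in B cells.

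Of the 161 T cell barcodes, 118 held at least 0.5% microglial marker UMIs and had a median of 17346.5 UMIs, against 5190 in the other 43. The 43 barcodes under that level still summed to 2.95-fold (2.47 to 3.51) the microglial level. Their Ifi27l2a level was 102 CPM (66.2 to 151), against 298 CPM (274 to 323) in the 118. Their Isg15 level was 143 CPM, from 35 UMIs in 6 barcodes, and their Bst2 level was 155 CPM, against 133 CPM in microglia with overlapping intervals. Where a library had at least 20 T cells, the summed level was 417 CPM (347 to 497) in acute helpless, 835 CPM (783 to 889) in recovered and 802 CPM (709 to 903) in chronic non-helpless. The recovered and chronic non-helpless T cells had overlapping intervals. Isg15 differed between these 2 libraries in T cells, at 67.2 CPM (53.0 to 84.0) in recovered and 161 CPM (122 to 210) in chronic non-helpless, where it was seen in 7 of 25 barcodes. Of the 55 UMIs behind the chronic non-helpless value, 28 lay in 3 barcodes under that microglial marker level, and in the barcodes at or above it Isg15 had 70.6 CPM (55.7 to 88.3) in recovered and 86.9 CPM (57.2 to 126) in chronic non-helpless T cells.

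In microglia, Bst2 was the one member of the 9 above 20 CPM. It had 133 CPM (126 to 140), was found in 36.5% of microglia and supplied 1465 of 2107 member UMIs. The other 8 genes summed to 58.3 CPM (53.9 to 63.0), in the order Rtp4 (16.3 CPM), Ifi27l2a (13.7), Isg15 (7.99), Ifitm3 (6.36), Irf7 (5.27), Ifit3 (4.09), Oasl2 (2.63) and Ifit2 (1.91). Neighbours in this order had overlapping intervals, except Ifi27l2a and Isg15, and no UMI of the 8 was seen in 2392 microglia, or 87.9%. The part of free RNA in shares this low was not tested. Ifit3, found in 1.10% of microglia at a median of 3987 UMIs, Ifitm3 and Oasl2 (0.662%) were seen in 0 of 39 NK cells at a median of 7463 UMIs, which allows a share of up to 9.03%. Too few NK and B cells were present to set a background below the microglial shares.

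Across libraries the 8 genes without Bst2 were highest in non-shocked and lowest in non-recovered microglia. Their summed level was 46.8 CPM (39.0 to 55.7) in acute helpless, 66.6 CPM (56.4 to 78.1) in acute non-helpless, 23.0 CPM (9.26 to 47.5) in non-recovered, 73.5 CPM (61.3 to 87.5) in recovered, 33.3 CPM (26.0 to 42.0) in chronic non-helpless and 84.9 CPM (72.2 to 99.1) in non-shocked microglia. The non-recovered value rests on 7 UMIs. The non-shocked library held 34.4 CPM (12.6 to 74.9) in batch 2, from 6 UMIs, and 90.1 CPM (76.4 to 106) in batch 3. Bst2 varied less, at 127, 146, 95.4, 146, 124 and 131 CPM in the same 6 libraries in that order, with non-recovered lowest (63.9 to 137) and all 6 intervals overlapping. With all 9 genes the sums were 174, 212, 118, 219, 158 and 216 CPM in that order.

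A few barcodes carried much of each sum. The single barcode with the most UMIs of the 8 held 31 of 127 in recovered microglia (24.4%), 19 of 159 in non-shocked (11.9%), 13 of 151 in acute non-helpless (8.61%), 10 of 127 in acute helpless (7.87%), 6 of 71 in chronic non-helpless (8.45%) and 1 of 7 in non-recovered. Leaving it out of the recovered library lowered that level to 55.8 CPM. Since UMIs of 1 cell are not independent, the counting intervals are narrower than the spread between cells would give.

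**Figure D2:**
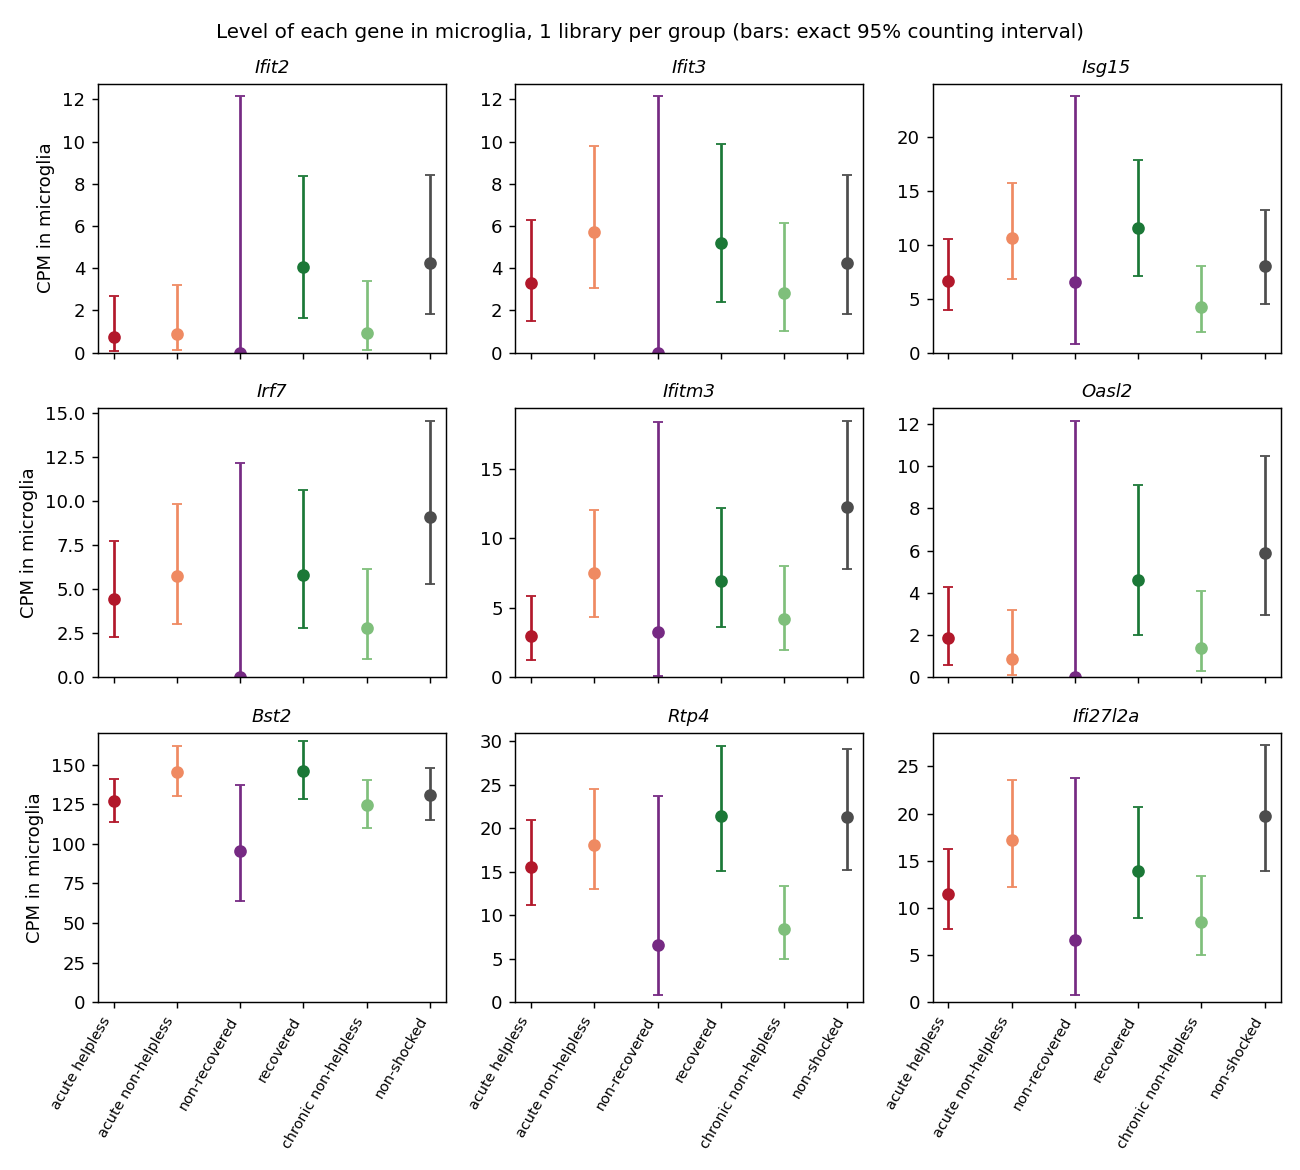
Level of each gene in microglia, in CPM, in the 6 libraries, with exact 95% counting intervals and 1 library per group. Bst2 stands between 124 and 146 CPM in 5 libraries and at 95.4 CPM in non-recovered, and the other genes reach at most 21.4 CPM, with recovered above chronic non-helpless for each of the 9 (for 8 of 9 without a single recovered barcode).

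Taking the members by role, the transcription factor Irf7 had 4.43, 5.73, 0, 5.79, 2.82 and 9.07 CPM in acute helpless, acute non-helpless, non-recovered, recovered, chronic non-helpless and non-shocked microglia, from 12, 13, 0, 10, 6 and 17 UMIs. Non-shocked was highest and its interval (5.29 to 14.5) overlaps that of every library. Isg15, the ubiquitin-like modifier, had 6.64, 10.6, 6.58, 11.6, 4.22 and 8.01 CPM in the same order of libraries, with recovered highest. A single recovered barcode held 7 of the 20 UMIs behind that value. Without it, recovered was at 7.56 CPM, below acute non-helpless and non-shocked. Of the antiviral effectors, Ifit3 lay between 2.82 and 5.73 CPM in the 5 libraries where it was seen, and Ifit2 between 0.738 and 4.27 CPM, its 21 UMIs falling mainly in recovered (7) and non-shocked (8) microglia.

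Oasl2 had 8 of its 29 UMIs in recovered and 11 in non-shocked microglia. Of the 8, 5 lay in the recovered barcode with the most member UMIs, as did 2 of the 7 recovered Ifit2 UMIs. Of the 11, 4 lay in 1 non-shocked barcode. Without that recovered barcode, Oasl2 had 3 UMIs (1.74 CPM) in recovered microglia, against 5 UMIs (1.84 CPM) in acute helpless and 3 UMIs (1.41 CPM) in chronic non-helpless. Ifitm3, the entry factor, had 2.95 CPM (1.27 to 5.81) in acute helpless and 12.3 CPM (7.78 to 18.4) in non-shocked microglia, whose intervals do not overlap, and 3.29 to 7.50 CPM in the other libraries. Rtp4 had 15.5, 18.1, 6.58, 21.4, 8.45 and 21.4 CPM in the order of libraries above, and its intervals in chronic non-helpless (5.01 to 13.3) and in recovered (15.1 to 29.5) or non-shocked (15.3 to 29.1) microglia do not overlap. Ifi27l2a had 11.4, 17.2, 6.58, 13.9, 8.45 and 19.8 CPM, the last in non-shocked microglia. In non-recovered microglia, 4 genes (Ifit2, Ifit3, Irf7 and Oasl2) had no UMI, at a depth where 3 UMIs would be 9.87 CPM, so their lower level there was not detectable.

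Levels of genes were set against all genes by a fixed rule of size: at least 1.5-fold apart, where the higher of both libraries reached 20 CPM. Since Bst2 and Rtp4 alone reached 20 CPM, 16 pairs of a member and a comparison were measured over the 9 comparisons. Of these, 5 pairs (31.3%) were past the rule, against 24.5% of such pairs over all genes, a share near the background. With a minimum of 5 CPM, 34 of 62 member pairs were past it, against 30.1% over all genes. The libraries also differ in the deposited clusters that hold their microglia. Non-recovered microglia lie in clusters 1 (41) and 6 (58), recovered in 2 (326) and 6 (46), and non-shocked in 1, 3, 4 and 6. Acute helpless, apart from 1 cell, lie in 1, 2 and 3, and both non-helpless libraries in 1, 2, 3 and 5. Ratios within a cluster and without cluster 5 were added after seeing the data. The paragraphs that follow give the ratio of the summed CPM first for the 8 genes without Bst2 and then for all 9.

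**Figure D3:**
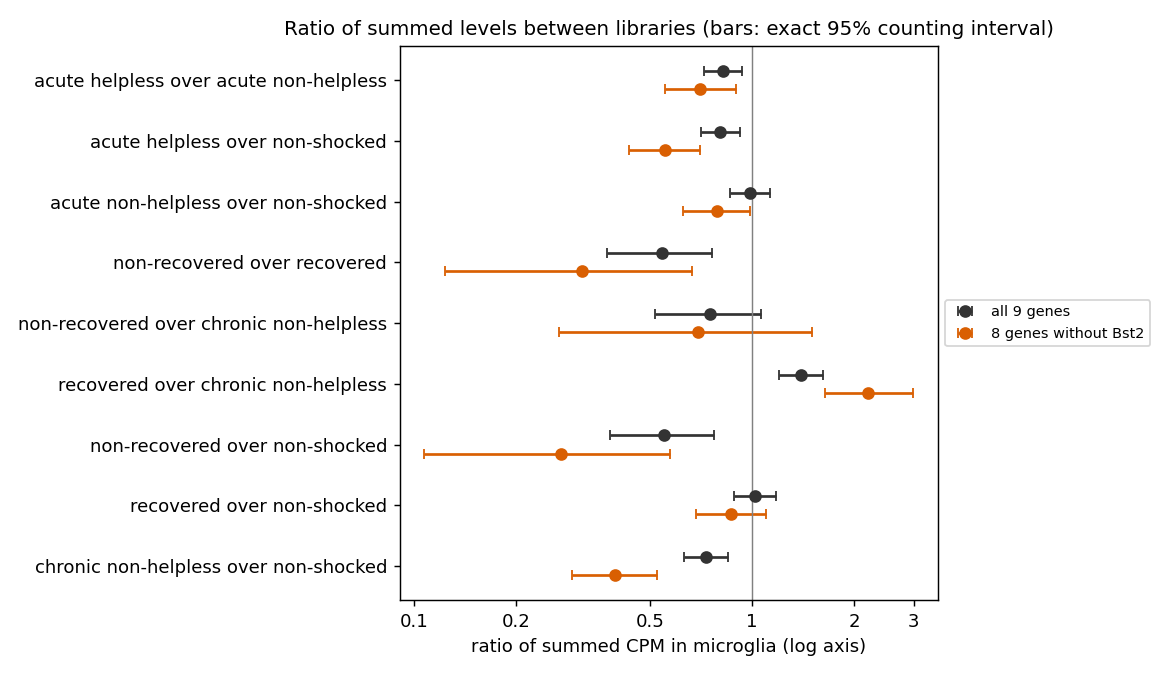
Ratio of summed CPM in microglia for the 9 comparisons on a log axis, for all 9 genes and for the 8 without Bst2, with exact 95% counting intervals. The ratio of recovered over chronic non-helpless microglia, 2.21 for the 8 genes, is the one furthest above 1, and the comparisons of non-recovered microglia have the widest intervals.

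Acute helpless microglia had a lower summed level of these genes than acute non-helpless microglia, a difference not seen without cluster 5. The 8 genes summed to 46.8 CPM against 66.6 CPM, a ratio of 0.703 (0.551 to 0.896), and all 9 to a ratio of 0.819 (0.720 to 0.932). Of the members, 8 were lower and Oasl2 higher, and the interval lay below 1 for Ifitm3 alone (0.393, 0.147 to 0.962). Cluster 5, which the acute helpless library lacks, held 64 of the 151 acute non-helpless UMIs of the 8 genes, and without it the 8-gene ratio was 1.02 (0.771 to 1.36) and the 9-gene ratio 0.980 (0.850 to 1.13). Within cluster 1 the 8 genes had 42.5 CPM in acute helpless and 35.5 CPM in acute non-helpless microglia, a ratio of 1.20 (0.796 to 1.82), and within clusters 2 and 3 the ratios were 0.867 (0.553 to 1.37) and 0.820 (0.341 to 2.10). Neither direction past 1.5-fold held a member at 20 CPM, against 8.92% of 6864 genes higher and 9.06% lower. Among other interferon-stimulated genes, Eif2ak2, the kinase PKR, was past the rule upward (1.54-fold) and 4 of 20 downward, with Ccl5 at 0.236 (0.150 to 0.363), Ccl12 at 0.481 (0.372 to 0.618), Phf11b at 0.569 and Herc6 at 0.624. Of the 18 with 10 or more UMIs but under 20 CPM over all microglia, a split chosen after seeing the data, 15 were lower, beside 56.2% of 4907 genes in that range. The interferon-inducible GTPases Irgm1 (24.7 against 57.8 CPM) and Irgm2 (28.8 against 55.1 CPM) were lower too, and Socs3, a feedback inhibitor of cytokine signalling, had 35.4 against 67.0 CPM, while Ifngr2, a chain of the interferon-gamma receptor, was 1.87-fold higher (1.65 to 2.12). Microglia of both libraries held no neutrophil marker UMI, 5 of 7 monocyte markers, at 9.96 and 20.3 CPM in sum with Vcan and Chil3 at 0, and T cell markers at 7.74 and 47.6 CPM (6 and 9 of 9 markers seen), in acute helpless and acute non-helpless. Border macrophage markers had 64 and 25 UMIs. The part of these cell types in the result was not tested. Without microglia that held a monocyte marker UMI the ratio of the 8 genes was 0.725 (0.561 to 0.937). The monocyte markers include Ms4a4c, which is also listed among the other interferon-stimulated genes. It gave 10 of 27 monocyte marker UMIs in acute helpless and 11 of 46 in acute non-helpless microglia. Leaving out such barcodes, here and below, also leaves out cells with an interferon-stimulated gene, so it cannot decide on monocyte content. Batch 1 against batch 2 cannot be told apart from the condition.

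Against non-shocked microglia, acute helpless microglia were lower in all 9 genes. The median log2 ratio over the 7229 genes at 20 CPM was itself below 0, at -0.16. The share of all genes lower by any amount was not counted for this comparison. The 8 genes summed to 46.8 CPM against 84.9 CPM (ratio 0.552, 0.434 to 0.701), and the 9-gene ratio was 0.805 (0.704 to 0.922). Intervals below 1 were found for Ifit2 (0.173), Ifitm3 (0.240), Oasl2 (0.314) and Ifi27l2a (0.579), while Bst2 had a ratio of 0.970 (0.821 to 1.15). Within clusters 1 and 3, which both libraries hold, the 8-gene ratios were 0.523 (0.376 to 0.723) and 0.467 (0.240 to 0.869). No member at 20 CPM was past 1.5-fold, and the background was wide and uneven, at 5.93% of 7229 genes higher and 23.1% lower. Other interferon-stimulated genes counted 0 of 20 higher and 7 lower, with Ccl12 at 36.9 against 117 CPM (0.314, 0.245 to 0.400), Herc6 at 0.472, Xaf1 at 0.553 and Phf11b at 0.573. The receptor and kinase list had 4 of 10 lower, among them Tyk2 (0.316), Stat2 (0.367) and Ifnar1 (0.511). Sensors had 4 of 14 lower, among them the endosomal receptors Tlr3 (0.414) and Tlr9 (0.426). All of these shares are read against the 23.1% of genes lower, and the 2 libraries share no batch. Without microglia holding a monocyte marker UMI the 8-gene ratio was 0.662 (0.509 to 0.859).

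Acute non-helpless and non-shocked microglia had a 9-gene ratio whose interval includes 1, and the ratio differed when non-shocked microglia of the same batch alone were used. The 8-gene ratio was 0.785 (0.624 to 0.987) and the 9-gene ratio 0.984 (0.860 to 1.13), with 3 members higher and 6 lower. Only Oasl2 had an interval below 1 (0.150, 0.0162 to 0.688), and all 11 of its non-shocked UMIs were of batch 3. Without cluster 5 the 8-gene ratio was 0.541 (0.411 to 0.706) and the 9-gene ratio 0.822 (0.709 to 0.952), and within cluster 1 the 8-gene ratio was 0.436 (0.296 to 0.633). Within batch 2 alone, the 9-gene ratio over non-shocked microglia was 2.06 (1.29 to 3.50) and the 8-gene ratio 1.94 (0.869 to 5.36), resting on 18 and 6 UMIs in 123 shallow microglia. All 9 members were then higher in acute non-helpless microglia, with an interval above 1 for Bst2 alone (2.12, 1.20 to 4.14). Ifit2, Ifit3, Oasl2 and Ifi27l2a had no UMI in the 123, where 3 UMIs would be 17.2 CPM. The share over all genes was not counted within batch 2. Past the rule over all genes were 7.45% of 7291 higher and 20.1% lower, and no member. Stat2 (0.641), Tyk2 (0.358) and Ifngr2 (0.498) were lower, and of the other interferon-stimulated genes Ccl5 was 9.09-fold higher (4.60 to 20.5), beside T cell markers at 47.6 CPM against 6.41 CPM, whose part was not tested. Irgm1 was 1.59-fold higher (1.18 to 2.17). Without microglia holding a monocyte marker UMI the 8-gene ratio was 0.912 (0.708 to 1.18).

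Non-recovered microglia had lower levels than recovered microglia. The 8 genes summed to 23.0 CPM against 73.5 CPM, a ratio of 0.313 (0.123 to 0.664), and all 9 to 118 CPM against 219 CPM, a ratio of 0.540 (0.372 to 0.761). Each member with a UMI in non-recovered microglia was lower, Bst2 at 95.4 against 146 CPM with an interval below 1 (0.654, 0.429 to 0.962). Ifit2, Ifit3, Irf7 and Oasl2 had no UMI there, at a depth where a lower level was not detectable. Without the recovered barcode with the most member UMIs the Bst2 ratio was 0.717 (0.469 to 1.06) and the 8-gene ratio 0.413 (0.162 to 0.884). The libraries share cluster 6 alone, where Bst2 had 17.5 CPM from 2 UMIs in non-recovered and 313 CPM from 32 UMIs in recovered microglia, 23 of them in that barcode. Outside it, Bst2 had 142 CPM (93.7 to 207) in non-recovered microglia of cluster 1 and 135 CPM (118 to 155) in recovered microglia of cluster 2. Condition and cluster cannot be told apart there. Bst2 and Rtp4 (6.58 against 21.4 CPM, ratio 0.307) were both past 1.5-fold, where 27.0% of 7414 genes were higher and 12.4% lower. The median log2 ratio of the 22 other interferon-stimulated genes measured was -0.30, against 0.16 over all genes, with 2 higher (Adar and Slfn2) and 6 lower, led by Sp100 (0.162) and followed by Phf11b (0.316), Ccl5 (0.355) and Ccl12 (0.381). Of 15 sensors measured, 3 were higher, a smaller share than the 27.0% of all genes, and 1 lower, with Tlr9 (168 against 89.8 CPM), Irf3 (79.0 against 48.6 CPM) and Ddx58, the RIG-I sensor, higher and Tlr3 (0.643) lower. The library held 99 microglia, so ratios of single genes other than Bst2 had wide intervals. A single non-recovered barcode labelled as a microglial cell carried 6790 of the 6830 neutrophil marker UMIs in that group. With the marker check applied, which removed it, the 9-gene ratio was 0.553. Monocyte markers were at 885 CPM in non-recovered microglia, 4 of 7 seen with S100a4, Vcan and Ms4a4c at 0, against 13.9 CPM in recovered microglia, 3 of 7 seen. The 269 UMIs behind the non-recovered value lay in 10 of the 99 barcodes. The part of monocytes in the result was not tested. Without microglia holding a monocyte marker UMI the 8-gene ratio was 0.332 (0.106 to 0.803), from 5 non-recovered UMIs.

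Non-recovered over chronic non-helpless microglia gave 0.691 for the 8 genes and 0.751 (0.517 to 1.06) for all 9, both intervals including 1. Isg15 was higher, Ifit2, Ifit3, Irf7 and Oasl2 had no UMI in non-recovered microglia, and the remaining members were lower. No member had an interval off 1 and none was past the rule, beside 24.4% of 7465 genes higher and 12.4% lower. Other interferon-stimulated genes had 0 of 18 higher and 3 lower, Shisa5 (98.7 against 215 CPM), Ccl12 (36.2 against 76.0 CPM) and Slfn8 (52.6 against 79.3 CPM). Ifngr2 was 2.44-fold higher (1.92 to 3.08). The 8-gene interval, with a lower bound of 0.268, rests on 7 non-recovered UMIs. It ends below the interval of recovered over chronic non-helpless microglia (2.21-fold, 1.64 to 3.00). Without the single recovered barcode with the most member UMIs, that ratio was 1.68 (1.22 to 2.31), and its interval overlaps the one of non-recovered microglia. Without cluster 5 the 8-gene ratio of non-recovered over chronic non-helpless microglia was 0.936 (0.356 to 2.09).

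Recovered microglia exceeded chronic non-helpless microglia, both of batch 3, in each of the 9 genes, though in 8 of 9 without a single recovered barcode. The 8 genes summed to 73.5 CPM against 33.3 CPM, a ratio of 2.21 (1.64 to 3.00), and all 9 to 1.39 (1.20 to 1.62). Intervals above 1 were found for Isg15 (11.6 against 4.22 CPM, 2.74-fold, 1.19 to 6.84) and Rtp4 (21.4 against 8.45 CPM, 2.54-fold, 1.41 to 4.73), and Bst2 had a ratio of 1.17 (0.984 to 1.40). Rtp4 was past the rule, as were 4.05% of 6891 genes upward and 3.15% downward, the smallest background of the 9 comparisons. Of the other interferon-stimulated genes that reached 20 CPM, 2 of 22 were past the rule upward, Sp100 (1.73-fold) and Ccl5 (48 UMIs against 1), with a median log2 ratio of -0.03, against -0.04 over all genes. Those at a level nearer the 8 members, with 10 or more UMIs but under 20 CPM over all microglia, a split chosen after seeing the data that keeps some genes above 20 CPM in 1 library, were higher in recovered microglia in 14 of 18, beside 44.6% of 4907 genes in that range. They summed to a ratio of 1.95 (1.59 to 2.38), or 1.59 (1.29 to 1.97) without Ccl5, and Ifi207 (15 against 4 UMIs), Oas1a (15 against 8) and Mx1 (14 against 8), named after their values were seen, were among them. Without the recovered barcode with the most member UMIs, 10 of 18 were higher, and the ratio without Ccl5 was 1.23 (0.984 to 1.54). Ifngr2 was 2.25-fold higher (1.95 to 2.62) and no other receptor, kinase or STAT was past the rule. Without the single recovered barcode that held the most member UMIs, an alternative chosen after seeing the data, the 8-gene ratio was 1.68 (1.22 to 2.31) and the 9-gene ratio 1.20 (1.03 to 1.40). Ifit3 was then lower, at 2.33 against 2.82 CPM, Isg15 had a ratio of 1.79 (0.708 to 4.74), and Rtp4, at 18.6 against 8.45 CPM (interval of the ratio 1.20 to 4.17), no longer reached 20 CPM. Within cluster 2, which does not hold that barcode, the 8-gene ratio was 2.06 (1.32 to 3.30) and the Bst2 ratio 0.938 (0.758 to 1.16), and without cluster 5 the 8-gene ratio was 2.99 (2.11 to 4.31). Recovered and chronic non-helpless microglia held 24 and 32 UMIs of monocyte markers, 8 and 2090 of neutrophil markers, 7 and 4 of T cell markers, and 10 and 56 of border macrophage markers. The part of these cell types was not tested. Without microglia holding a monocyte marker UMI, the 8-gene ratio was 2.15 (1.53 to 3.06). Of the 24 monocyte marker UMIs in recovered microglia, 15 were of Ms4a4c, itself a listed interferon-stimulated gene.

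Set against non-shocked microglia, the chronic libraries divided. Non-recovered microglia had 8-gene and 9-gene ratios of 0.271 (0.107 to 0.572) and 0.549 (0.379 to 0.773), with no single interval below 1. Each member with a UMI in non-recovered microglia was lower, and Ifit2, Ifit3, Irf7 and Oasl2 had no UMI there. Within cluster 1 the 8-gene ratio was 0.259 (0.0693 to 0.684). Rtp4 (6.58 against 21.4 CPM) was past the rule downward, beside 10.3% of 7543 genes lower and 15.7% higher. Sensors counted 6 of 15 higher, Ifih1 (2.19-fold), Irf3 (1.70), Tlr9 (1.70) and Ddx58 (1.62) first, and 1 lower, while of 20 other interferon-stimulated genes Slfn2 was higher (59.2 against 34.2 CPM) and 4 were lower, Phf11b (0.301), Ccl12 (0.308), Shisa5 (0.472) and Trim25 (0.616). The monocyte markers at 885 CPM in non-recovered microglia, from 269 UMIs in 10 barcodes, stand beside 13.3 CPM in non-shocked microglia. Recovered over non-shocked microglia had intervals that include 1, at 0.867 (0.681 to 1.10) for the 8 genes and 1.02 (0.882 to 1.17) for all 9, with 4 members higher, 5 lower and none past the rule. Without the recovered barcode with the most member UMIs the 8-gene ratio was 0.657 (0.505 to 0.852) and the 9-gene ratio 0.876 (0.755 to 1.02), with Bst2 higher and 8 members lower. In cluster 6, the one these libraries share, the 8-gene ratio was 5.30 (2.87 to 10.3), with 31 of the 40 recovered UMIs in that barcode. The background there was 3.48% of 7233 genes higher and 13.9% lower.

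Chronic non-helpless microglia were lower than non-shocked microglia in all 9 genes. The 8 genes summed to 33.3 CPM against 84.9 CPM, a ratio of 0.392 (0.292 to 0.522), and to 0.370 (0.275 to 0.493) against the batch 3 non-shocked microglia alone. Intervals lay below 1 for Irf7 (0.310), Ifitm3 (0.344), Oasl2 (0.240), Rtp4 (0.396) and Ifi27l2a (0.428), and within batch 3 for Ifit2 (0.199) as well. Within clusters 1 and 3 the 8-gene ratios were 0.200 (0.0890 to 0.395) and 0.436 (0.174 to 0.959), and without cluster 5 the ratio was 0.290 (0.203 to 0.407). Bst2 had a ratio of 0.951 (0.796 to 1.14). Rtp4 was past the rule downward, with 14.2% of 7305 genes lower and 3.22% higher. Of 20 other interferon-stimulated genes measured, Ccl12 (76.0 against 117 CPM) was the one past the rule, and their median log2 ratio was 0.02, against 0.01 over all genes. Of the 18 under 20 CPM, 16 were lower, beside 60.1% of 4907 genes in that range, at a summed ratio of 0.569 (0.464 to 0.695). Ifngr2 (132 against 330 CPM) was lower and no sensor was past the rule in either direction. The comparisons with non-shocked microglia share that library, and those among chronic libraries share theirs, so they are not independent of one another.

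Ifngr2 had 307, 165, 322, 298, 132 and 330 CPM in the order of libraries above, lower in both non-helpless libraries than in the other 4. Of the ligands, Ifnb1 had 1 UMI in all cells and none in microglia, and the 8 listed alpha, kappa and lambda interferon genes had 0. Ifng, made by T and NK cells, had 42 UMIs, 22 of them in T cells, 12 in NK cells and 4 in microglia. Sources outside the CD45+ sort were not profiled.

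The members were not spread evenly over microglia. UMIs of 3 or more of the 9 genes were seen in 55 of 2721 microglia (2.02%, 1.53 to 2.62). By library they were 11 of 630 in acute helpless (1.75%, 0.875 to 3.10), 14 of 569 in acute non-helpless (2.46%, 1.35 to 4.09), 0 of 99 in non-recovered, which allows a share of up to 3.66%, 10 of 372 in recovered (2.69%, 1.30 to 4.89), 5 of 499 in chronic non-helpless (1.00%, 0.326 to 2.32) and 15 of 552 in non-shocked (2.72%, 1.53 to 4.44). All these intervals overlap. The 15 non-shocked barcodes were all of batch 3, against 0 of 123 in batch 2. By deposited cluster they were 20 of 905 in cluster 1, 18 of 930 in cluster 2, 8 of 395 in cluster 3, 0 of 39 in cluster 4, 7 of 217 in cluster 5 and 2 of 235 in cluster 6, so no deposited cluster gathers them. After each barcode was thinned to 1000 UMIs, 6 of 2600 microglia reached 3 genes, at most 0.534% of a library. Among the other types, 33 of 42 monocytes and 69 of 161 T cells reached 3 genes at full depth, and 18 of 41 monocytes and 8 of 157 T cells after thinning. At full depth the T cells were 64 of the 118 with at least 0.5% microglial marker UMIs (54.2%) and 5 of the other 43 (11.6%).

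These 55 microglia, 3.82% of the microglial UMIs, held 46.9% of the UMIs of the 8 genes and 9.35% of those of Bst2. Their median depth was 5188 UMIs, against 3960 in the other microglia, and 8 of the 55 were over 15000 UMIs, against 8 of 2666. Without barcodes over 15000 UMIs the share was 1.60% in acute helpless, 1.78% in acute non-helpless, 2.43% in recovered, 0.805% in chronic non-helpless and 2.54% in non-shocked microglia. Microglial markers were near their usual level in the 55, at 48741 CPM against 56279 CPM, and 53 passed the marker check. Markers of other cells were higher in them, T cell markers at 207 against 6.51 CPM (in 10.9% against 1.39% of barcodes), border macrophage markers at 143 against 12.2 CPM, and monocyte markers at 117 against 35.3 CPM (in 20.0% against 3.56%). The monocyte markers include Ms4a4c, itself a listed interferon-stimulated gene, so their level is not independent of how the 55 were chosen. Neutrophil markers were at 4863 against 651 CPM, in 1 of the 55 barcodes. The part of a second cell in a droplet was not tested, and doublets were not removed.

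The barcode with the most member UMIs was a recovered microglial cell of cluster 6 with 6426 UMIs. It held 54 member UMIs, against 19 and 18 in the next highest, and all members but Ifitm3: Bst2 23, Isg15 7, Ifit3, Irf7, Oasl2 and Rtp4 5 each, and Ifit2 and Ifi27l2a 2 each. It carried 16 UMIs of P2ry12, 21 of Tmem119, 8 of monocyte markers (a list that includes Ms4a4c) and none of T cell or neutrophil markers. The next were a non-shocked cell of cluster 1 with 7 members in 4630 UMIs and an acute non-helpless cell of cluster 5 with 7 members in 4326 UMIs.

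**Figure D4:**
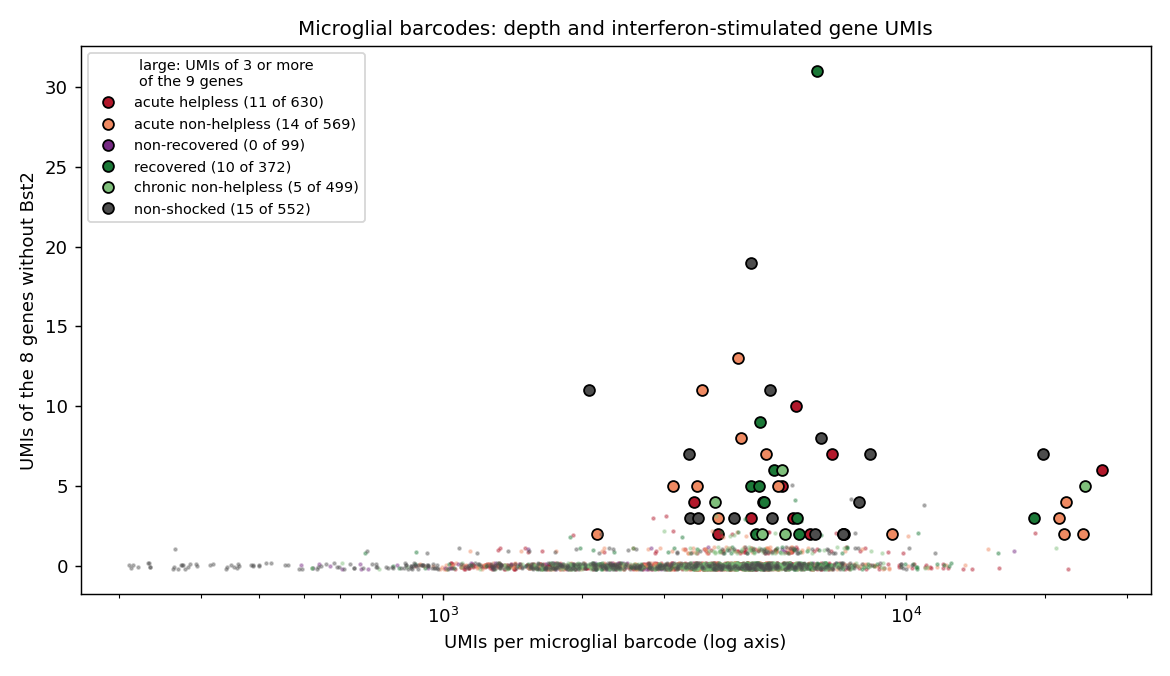
UMIs of the 8 genes without Bst2 against the total UMIs (log axis) of each of 2721 microglial barcodes; large points hold 3 or more of the 9 genes, and small points are jittered vertically. Most barcodes lie at 0, a recovered barcode stands at 31, and 8 of the 55 large points lie over 15000 UMIs.

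Seen gene by gene, each member was concentrated in microglia that held others. Microglia with UMIs of at least 2 other genes of the 8, between 46 and 66 cells depending on the gene left out, had 38.5-fold (17.2 to 90.2) more Oasl2, 33.6-fold more Ifit3, 28.2-fold more Irf7 and 17.7-fold more Ifitm3 in CPM than the remaining microglia. For Ifit2 the ratio was 17.3, for Ifi27l2a 13.6, for Rtp4 12.3 and for Isg15 8.95, and for Bst2 2.29 (1.91 to 2.73). Isg15, detected in 77 microglia, had the lowest ratio of the 8. Without the barcode with the most member UMIs these ratios were 6.21 to 28.2 for the 8 genes and 1.93 for Bst2. The cells with 2 other genes were deeper, with medians of 5010 to 5342 against about 3960 UMIs. Positive cells of each gene came from 4 or 5 libraries.

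**Figure D5:**
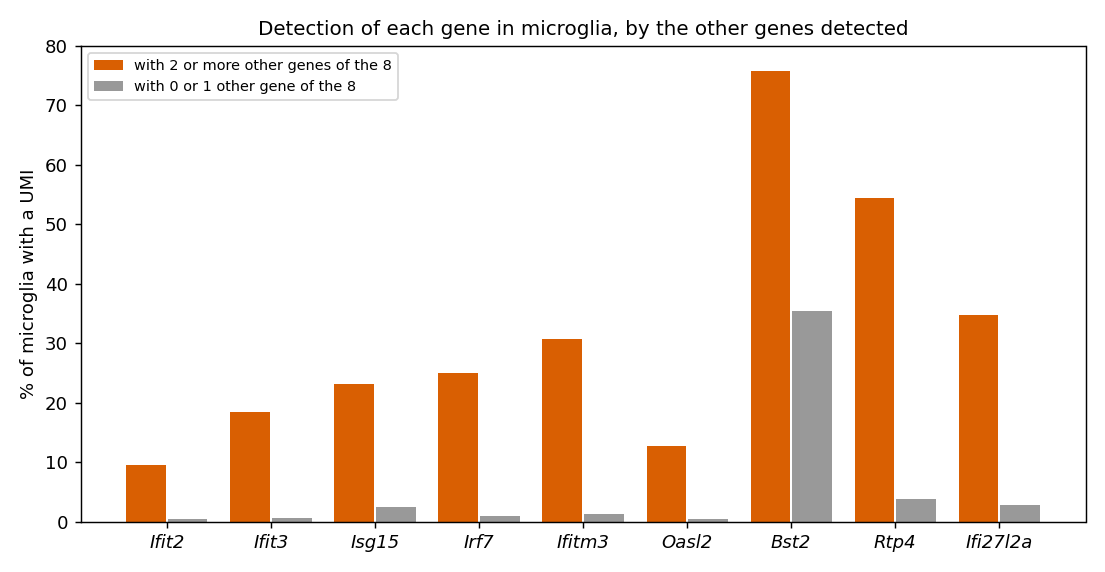
Share of microglia with a UMI of each gene among microglia with UMIs of at least 2 other genes of the 8 and among the remaining microglia. Rtp4 was found in 54.3% against 3.81% and Bst2 in 75.8% against 35.5%.

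Clusters of the deposited annotation differed in level, but they were tied to libraries. The 8 genes summed to 47.2 CPM (41.2 to 53.9) in cluster 1, 48.7 CPM (42.2 to 55.9) in cluster 2 and an interval of 47.3 to 77.5 CPM in cluster 3, and to 127 CPM (103 to 156) in cluster 5 and 138 CPM (105 to 179) in cluster 6. Cluster 4, with 39 microglia and 8 UMIs of the 8 genes, had 136 CPM (58.8 to 268). Cluster 5 came from the acute non-helpless and chronic non-helpless libraries, at 172 CPM (133 to 220) and 78.7 CPM (51.8 to 114). Cluster 1, the lowest of each, had 35.5 CPM (25.5 to 48.1) and 16.3 CPM (7.44 to 30.9). Clusters 2 and 3 had 64.8 CPM (45.7 to 89.4) and 53.1 CPM (24.3 to 101) in acute non-helpless microglia. In chronic non-helpless microglia they had 26.0 CPM (17.1 to 37.8) and 40.7 CPM (17.6 to 80.1), the latter interval overlapping that of cluster 5. The cluster 6 level rested on 40 UMIs in recovered microglia, 31 of them in the single highest barcode. Bst2 was lowest in cluster 3, at 75.6 CPM (60.2 to 93.7), and highest in cluster 5, at 189 CPM (158 to 224). Its level was 131, 139 and 145 CPM in clusters 1, 2 and 6, and 7 UMIs were seen in cluster 4. The clusters were made from the same cells, so these levels are a description.

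Genes whose UMIs were most concentrated in the 55 microglia were ranked by their CPM ratio over the other microglia, among 7510 genes with at least 50 UMIs and positive cells in at least 5 of the 55. Past the members, S100a6 (113-fold), Cybb (13.5-fold), S100a11 (10.7-fold), Sp100 (9.73-fold) and H2-Ab1 (8.26-fold) led, and Cd74, H2-Q7, Mx1, Lgals1, Ptprcap, H2-Q6, Mrc1, Fxyd5, Arhgap15 and Ly6a completed the 15 highest. S100a6 rested on 6 of the 55 barcodes, and its level in monocytes was 929 CPM. Within 2000 to 10000 UMIs, a range chosen after seeing the data that keeps 47 of the 55, 5 of these 15 stayed among the 15 highest. There the order was led by Mx1 (13.7-fold, 6.69 to 26.4), Sp100 (13.3-fold), H2-Q6 (8.60-fold), Sdc3 (8.19-fold) and Xaf1 (7.41-fold). Mx1 is a dynamin-like antiviral GTPase and Sp100 a nuclear body protein, both known interferon targets.

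The listed genes of the pathway divided in these cells by role. Of these 23, 19 were at least 1.5-fold higher in the 55 microglia and 0 lower, against 7.51% of the 7510 ranked genes higher. Within 2000 to 10000 UMIs it was 20 of 22, against 11.1% of 6102, with Mx1, Sp100, Xaf1, Slfn2, Ccl12 and Lgals3bp first. Of interferon-gamma GTPases and targets, 4 of 7 were higher in that range (Gbp2, Irgm1, Gbp9 and Igtp). Of receptors, kinases and STATs it was 3 of 10, Stat2 and Irf9 among them, while the receptor chains and kinases were not. Of sensors it was 3 of 16, Dhx58, Ifih1 and Ddx58, the family of cytosolic RNA sensors, and of negative regulators 1 of 6, Usp25. The cells compared here were chosen by the members' own UMIs and are not replicates, so these counts describe them and carry no test.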

How the data were processed

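Live CD45+ hippocampal cells were profiled with a 5' droplet kit in 6 libraries, 1 per group, per the labels' protocols. The files deposited by the authors hold raw UMI counts per gene and barcode. The submitters' processing notes name Cell Ranger 2.2.0, Seurat 2.3.4 and the build mm10, without the step each was used for. Cell filters, clustering and typing are not given in the sources used here, and cell type, cluster and batch were taken from the deposited per-cell labels. What a batch stands for is not stated. The authors' normalized values were not used here. Results for 1 pathway gene are not reported here.

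UMIs were summed per library and cell type and divided by the total (CPM), with Python 3.11.15, numpy 2.4.6, scipy 1.17.1 and pandas 2.3.3, and figures were drawn with matplotlib 3.10.9. Libraries held 438777 to 3260120 UMIs. In all, 259 pairs of older and newer symbols were merged, and 310 symbols found under 1 annotation only were left out of the all-gene background. Intervals at 95% are exact (Poisson for levels, Clopper-Pearson for shares, conditional for ratios) and cover counting error only. For levels in CPM, a count of 0 was read as up to 3 counts. Doublets were not called. The scripts were tested on simulated data.

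All 9 members are named. From each pathway list at most 4 genes per direction are named, those past 1.5-fold at 20 CPM with the largest ratios, and the 15 genes most concentrated in microglia with 3 or more members. The members, lists and markers were chosen with earlier results of these data known. Alternatives changed the cells kept, their weighting, the normalization, the members summed and the thresholds. Of these, leaving out single, deep or monocyte-marker barcodes or cluster 5, ratios within clusters of at least 20 microglia per library, the genes under 20 CPM, the batch restriction without Bst2, the depth range of 2000 to 10000 UMIs and the splits of T cells and monocytes were chosen after seeing the data.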

Additional observations from a re-analysis of the deposited data

How the results depend on the processing

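No paired analysis was possible because each group has 1 library, so the groups compared share fewer than 2 replicate numbers. Over 105 alternative values of the 9-gene ratios, 68 moved by less than counting error and 36 moved further, and 1 turned a ratio whose interval excluded 1: without Bst2 and cluster 5, acute helpless over acute non-helpless gave 1.02, and with Bst2 0.980. Without cluster 5, acute non-helpless over non-shocked gave 0.822, and without Bst2 as well it gave 0.541, recovered over chronic non-helpless 2.99 and chronic non-helpless over non-shocked 0.290. The ratios of acute non-helpless and of recovered over non-shocked microglia, whose intervals include 1, fell on either side of 1. Without Bst2, the ratio was 0.703 for acute helpless over acute non-helpless, 0.552 for acute helpless over non-shocked, 0.785 for acute non-helpless over non-shocked, 0.313 for non-recovered over recovered, 2.21 for recovered over chronic non-helpless, and 0.271, 0.867 and 0.392 for non-recovered, recovered and chronic non-helpless over non-shocked. Without Bst2 and barcodes over 15000 UMIs, it was 0.718, 0.552, 0.769, 0.288, 2.33, 0.255 and 0.380 in that order, leaving out recovered over non-shocked. Without Bst2 and barcodes with a monocyte marker UMI, it was 0.662 for acute helpless over non-shocked, 0.332 for non-recovered over recovered, 2.15 for recovered over chronic non-helpless, and 0.277, 0.833 and 0.387 for non-recovered, recovered and chronic non-helpless over non-shocked. The monocyte markers include the interferon-stimulated gene Ms4a4c. Against non-shocked microglia of the same batch, acute non-helpless gave 2.06, and without Bst2 1.94, while non-recovered, recovered and chronic non-helpless gave 0.256, 0.817 and 0.370 without Bst2. Weighting cells equally gave 0.365 for non-recovered over recovered. Without the barcode with the most member UMIs, recovered gave 1.20 over chronic non-helpless and 0.876 over non-shocked, and without Bst2 as well 1.68 and 0.657. Without that barcode Bst2 in non-recovered over recovered gave 0.717 (0.469 to 1.06). The causes were not tested.

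The share of microglia with 3 or more genes became, at 2 or more, 6.03% in acute helpless, 9.14% in acute non-helpless, 8.60% in recovered, 6.41% in chronic non-helpless and 7.25% in non-shocked. At 4 or more it was 1.05% in acute non-helpless, 0.806% in recovered, 0.200% in chronic non-helpless and 1.45% in non-shocked. Thinned to 1000 UMIs it was 0% in acute helpless, 0.534% in acute non-helpless, 0.274% in recovered, 0% in chronic non-helpless and 0.435% in non-shocked. The 5 of 16 pairs past 1.5-fold, against 24.5% over all genes, became 34 of 62 with a minimum of 5 CPM, against 30.1%. They became 1 of 9 with 50 CPM, against 21.1% over all genes, and 41 of 81 with no minimum, against 29.7%. Depth limits the non-recovered library most, where 3 UMIs of a gene are 9.87 CPM.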
